A study of Homo sapiens with 4 samples.

Results

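The genes followed here are 8 genes of cholesterol synthesis and of its control through the sterol regulatory element-binding proteins (SREBPs): the transcription factor genes SREBF1 and SREBF2, the sterol sensor gene INSIG1, and the enzyme genes HMGCS1, IDI1, FDFT1, SQLE and LSS. They were chosen by symbol, and each symbol was matched to the entry of the gene table that names it, or, where several do, to the entry with the highest mean count. All 8 were found among the 62778 entries that name a gene, and all 8 were among the 26167 entries with enough counts to be tested. RNA was sequenced from K562-U2AF1_S34F cells, which are K562 cells, an established human erythroleukemia line, made to overexpress the S34F mutant of the splicing factor U2AF1. The comparison is of 2 libraries from cells given the solvent DMSO with 2 libraries from cells given 30 uM SF1-8, a compound made to block the U2AF homology motif (UHM) of U2AF1, both for 48 h. All 4 libraries carry the S34F overexpression, so cells without it, and other doses and times, were not analysed here. The labels do not say whether the libraries of a group came from separate cultures, so the p-values measure only the spread between these samples, which may be technical.

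Cholesterol is built from acetyl-CoA in the cytosol and the endoplasmic reticulum. HMGCS1 makes HMG-CoA, from which mevalonate is formed, and later enzymes turn mevalonate into isoprenoids and then into squalene, lanosterol and cholesterol. When sterols are plentiful, INSIG1 holds SCAP and the SREBPs in the endoplasmic reticulum. When sterols fall, SCAP carries the SREBPs to the Golgi, where they are cut, and the freed part enters the nucleus and activates these same genes. SREBP-2, from SREBF2, acts mainly on cholesterol genes, and SREBP-1, from SREBF1, mainly on fatty acid genes. The level of these mRNAs is widely read as a report of how active the SREBPs are.

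Promoters of these genes, the sequences at which SREBPs bind their targets, are shown first, as the stretch from 175 to 91 bases before the transcription start, 5′ to 3′ on the strand of the gene, from the RefSeq promoters on GRCh38.p14. The table of promoters holds 6 of the 8 genes, and SQLE and FDFT1 are not in it. The 4 printed here were chosen to set both SREBF genes beside a gene of the sterol sensor and a gene of the first enzymes. Capitals mark a sterol regulatory element, searched as TCACNCCAC, or an NF-Y box, the site of a factor that acts together with the SREBPs. The NF-Y box was searched as CCAAT, and in these stretches it stands as the reverse complement.
SREBF2: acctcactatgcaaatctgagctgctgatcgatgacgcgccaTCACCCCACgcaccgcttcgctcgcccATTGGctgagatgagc
SREBF1: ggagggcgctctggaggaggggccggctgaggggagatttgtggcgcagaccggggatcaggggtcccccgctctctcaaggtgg
HMGCS1: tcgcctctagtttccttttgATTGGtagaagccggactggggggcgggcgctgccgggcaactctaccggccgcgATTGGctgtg
INSIG1: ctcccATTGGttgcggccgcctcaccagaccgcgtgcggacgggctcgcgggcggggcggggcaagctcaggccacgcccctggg
These stretches lie at chr22:41832930-41833014 on the plus strand (SREBF2), chr17:17837077-17837161 on the minus strand (SREBF1), chr5:43313503-43313587 on the minus strand (HMGCS1) and chr7:155297703-155297787 on the plus strand (INSIG1).

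Both strands of the full promoter windows, from 250 bases before to 50 bases after the start, were searched. For each gene 1 start was used, the nearest to the 5′ end of its entry, of 2 listed for HMGCS1 and 3 for IDI1. For SREBF1 only 1 start was listed, and promoters elsewhere in that gene were not searched. SREBF2 was the only one of the 6 with a match to the sterol regulatory element, 133 bases before the start, and 1.13% of 35116 promoters of the same length hold one. Its NF-Y box lies 106 bases before the start. An NF-Y box was found in 5 of the 6, all but SREBF1, against 34.6% of all promoters, and HMGCS1 and IDI1 hold 2 each. The Sp1 box, searched as GGGCGG, was in 6 of the 6, against 45.0% of all promoters. The E box, searched as CANNTG, was in 2 of the 6, INSIG1 and LSS, against 68.7%. These are matches of letters within this window, and binding was not measured. Variants of these patterns were not searched, so a promoter without a match may still hold such an element.

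Each library held between 45522905 (DMSO 1) and 67554610 (SF1-8 1) estimated counts, of which 11.7% to 14.9% lay on 52 entries of ribosomal RNA. U2AF1, of which GRCh38 also holds a near-identical copy that can share its reads, had 154, 164, 168 and 169 CPM (counts normalized by edgeR's TMM factors and scaled to 1 library size) in DMSO 1, DMSO 2, SF1-8 1 and SF1-8 2, and no cells without the transgene were there to check its overexpression against. Of the markers of the line, such as the fetal globin genes and GATA1, none was below 0.1 FPKM in every library, and their summed level was 258 and 256 FPKM with DMSO and 233 and 254 FPKM with SF1-8, lower in both SF1-8 libraries than in both DMSO libraries. FPKM (fragments per kilobase of transcript, scaled to library depth) gives a level per length, so that genes can be compared. The summed level of 7 stromal markers was 10.2, 4.87, 2.36 and 0.660 FPKM in the same order of libraries, lower in both SF1-8 libraries than in both DMSO libraries, with DCN and PDGFRB below 0.1 FPKM throughout and LUM at a count of 0 in both SF1-8 libraries. The summed levels of 3 lymphoid (0.412 to 0.653 FPKM) and 3 hepatocyte markers (0.179 to 0.415 FPKM) were low throughout and also lower in both SF1-8 libraries. Those of 3 monocyte (4.23 to 5.84 FPKM) and 4 epithelial markers (62.7 to 73.3 FPKM) overlapped between the groups. The monocyte sum was mostly LYZ (4.08 to 5.80 FPKM), and CD14 and CSF1R reached at most 0.125 FPKM. The epithelial sum was mostly KRT18, KRT8 and EPCAM, and CDH1 had 0.0886 to 0.348 FPKM. Neither sum gives a share of cells. The part of these levels in the values below was not tested, and in bulk RNA fewer cells of a type and less RNA per cell cannot be told apart.

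All 8 genes were well expressed in every library, at 11.0 FPKM or more. INSIG1 had the highest level, with a mean over the 4 libraries of 61.5 FPKM (range 51.9 to 71.5). It was followed by HMGCS1 at 38.2 FPKM (34.4 to 40.0) and SQLE at 34.2 FPKM (32.7 to 35.2), whose ranges overlapped. FDFT1, which makes squalene, stood below them at 22.7 FPKM (21.4 to 24.0), and SREBF2 below it at 18.8 FPKM (18.0 to 19.1). The lowest were LSS at 14.3 FPKM (14.04 to 14.70), IDI1 at 13.7 FPKM (11.0 to 15.4) and SREBF1 at 13.2 FPKM (12.3 to 14.5), and neighbours in this order overlapped. Along the pathway the mRNA levels of the enzymes thus did not follow the order of their steps, with HMGCS1 and SQLE above and IDI1 and LSS below FDFT1.

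**Figure D1:**
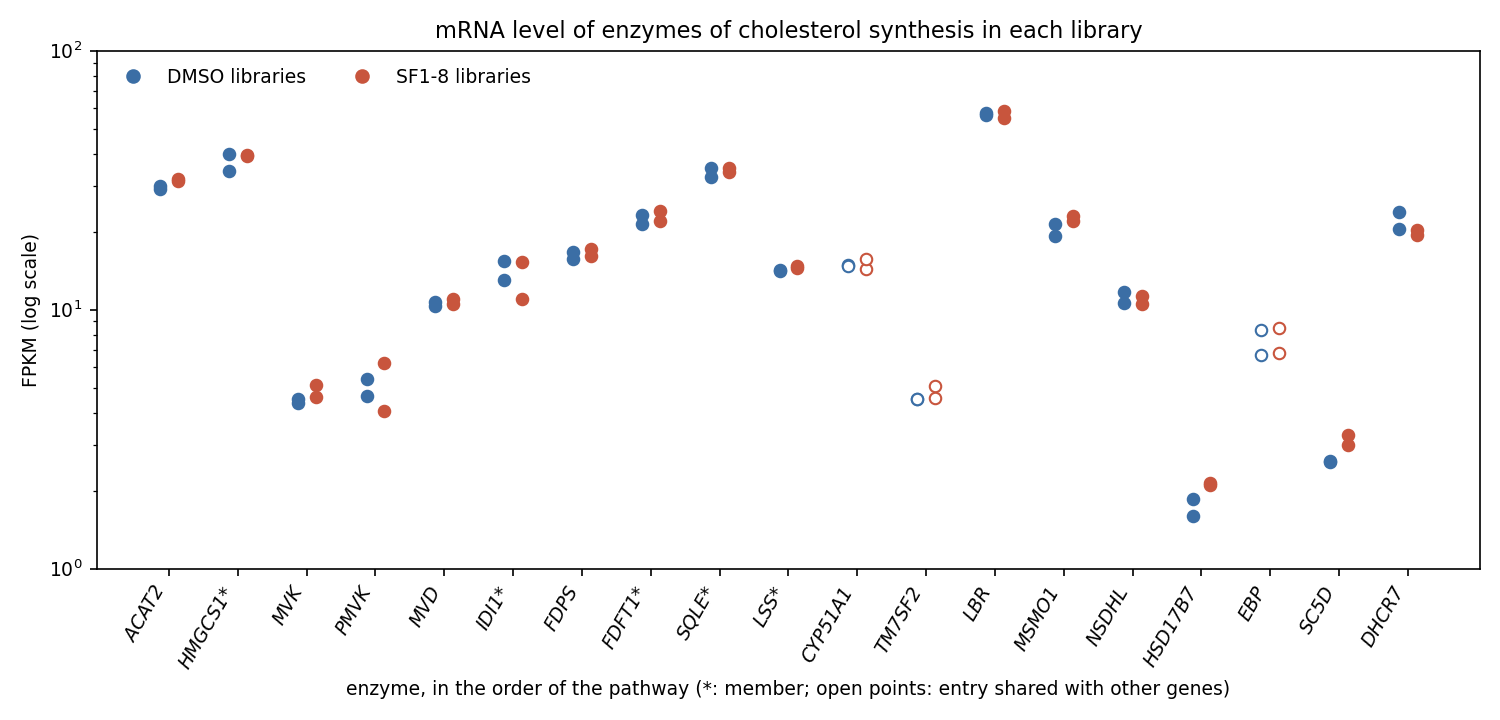
FPKM on a log axis of enzymes of cholesterol synthesis, in the order of the pathway, with 1 point per library (blue, DMSO; red, SF1-8; open points, entries that also name other genes). The points of both groups lie close together for HMGCS1, SQLE, FDFT1 and LSS, and IDI1 is spread from 11.0 to 15.4 FPKM.

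The comparison asks whether SF1-8 changed the expression of these genes in K562-U2AF1_S34F cells. At an adjusted p of 0.05, 0 of the 8 genes passed in edgeR's quasi-likelihood test (Benjamini-Hochberg, over all genes tested), where 11 genes, or 0.042%, did. None passed an unadjusted p of 0.05 either, against 4.33% of all genes, and none did by DESeq2 or by limma. The adjusted p-values of the 8 in edgeR ran from 0.970 to 0.992 (INSIG1), and the fold changes lay between 0.940 (IDI1) and 1.08 (HMGCS1). Of the 8 genes, 7 had a higher and 1 a lower fitted level with SF1-8, and their median log2 fold change was 0.071. Over all genes tested the median was -0.011 and 48.4% had a higher fitted level. Among the 3044 genes with a mean of at least 10 FPKM, as all 8 have, the median was 0.046 and 70.7% had a higher fitted level. In 3 of the 8 (HMGCS1, SQLE and LSS) both SF1-8 libraries were above both DMSO libraries in CPM, against 17.3% of all genes and 30.9% of the well-expressed genes. In 0 of the 8 both were below, against 18.1% of all genes and 7.36% of the well-expressed ones. These shares are in CPM, and in FPKM both HMGCS1 and SQLE were highest in DMSO 1.

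What the 4 libraries could show is given by the intervals. For all 8 genes the 95% interval of the fold change lay within 2-fold in either direction, as it did for 45.9% of all genes and for 93.2% of the well-expressed genes. On the log2 scale the narrowest was that of LSS, from 0.934-fold to 1.18-fold, and the widest that of IDI1, from 0.696-fold to 1.27-fold. With 2 libraries against 2, an exact permutation test of a single gene cannot give a two-sided p below 0.3333, so the test rests on the spread that edgeR estimates over all genes.

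**Figure D2:**
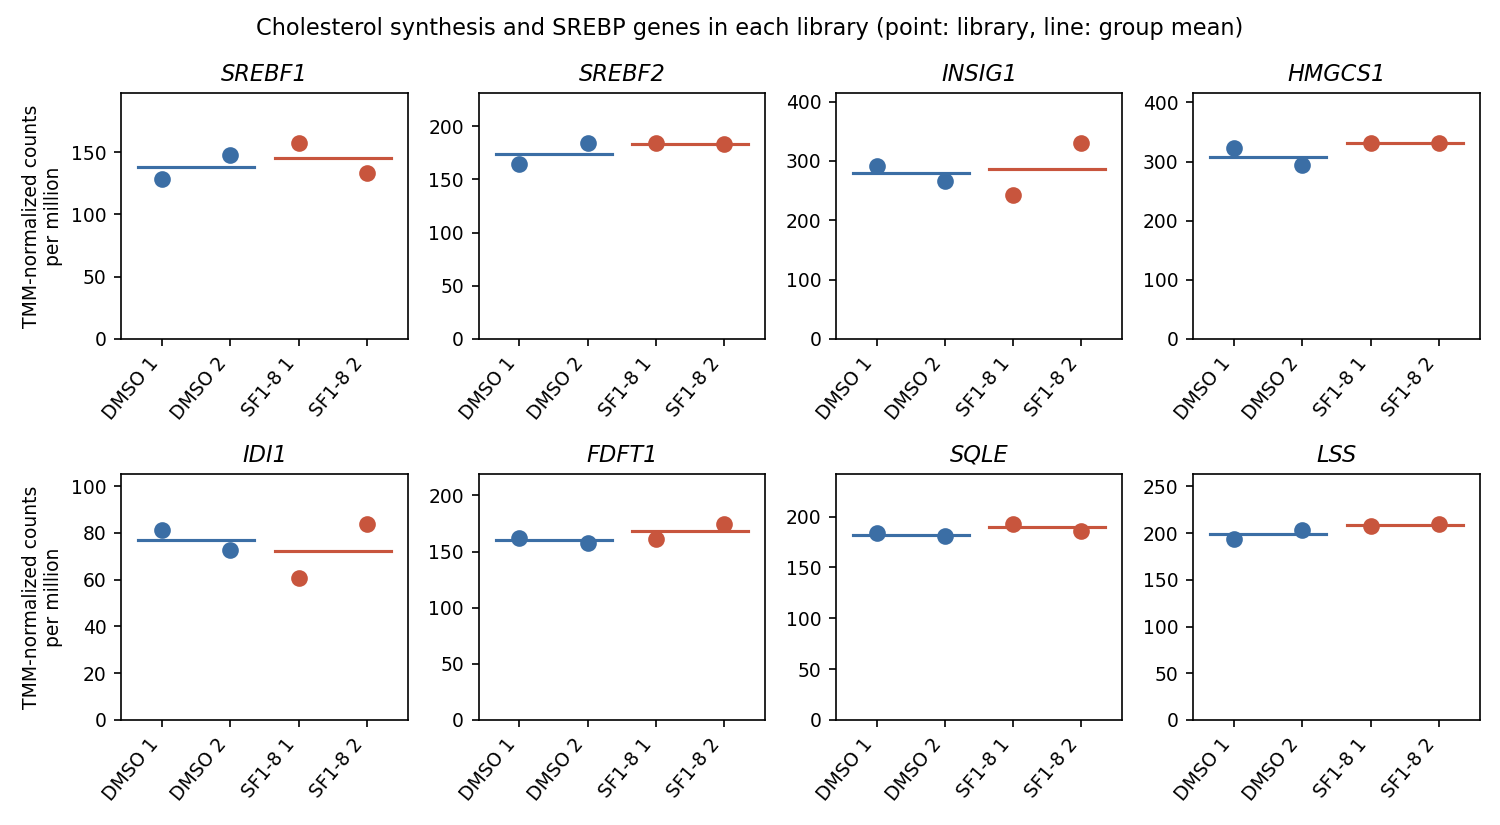
Normalized counts (CPM) of the 8 genes in each library (points) with the mean of each group (lines), on axes that start at 0. HMGCS1, SQLE and LSS have both SF1-8 points above both DMSO points by small amounts, and the SF1-8 points of INSIG1 and IDI1 lie on either side of the DMSO points.

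The regulators come first. SREBF2, on chromosome 22 from 41833079 to 41907307 (plus strand, GRCh38), encodes the main activator of the cholesterol genes. It had 165 and 184 CPM with DMSO and 185 and 183 with SF1-8. DMSO 1 was the low library and the other 3 lay together, so the log2 fold change of 0.08 ± 0.08 (SE) became -0.0013 without DMSO 1. In FPKM its level was 18.5 ± 0.710 (SD, n = 2) in the DMSO group and 19.1 ± 0.0217 (SD, n = 2) in the SF1-8 group. The antisense gene SREBF2-AS1 overlaps its 5′ end at 2.21 to 2.77 FPKM, and the host-intron microRNA MIR33A was listed at 0 counts in all 4 libraries.

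SREBF1, on chromosome 17 from 17810399 to 17837011 (minus strand), encodes SREBP-1a and SREBP-1c, which this table does not separate. Its level was 128 and 148 CPM with DMSO and 158 and 133 with SF1-8. The groups overlapped, with 1 library of each at the bottom, and the fold change was 1.05 (95% interval 0.854 to 1.30). Its log2 value of 0.08 ± 0.12 (SE) turned to -0.047 without SF1-8 1 and to -0.023 without DMSO 1. A further entry that carries the same symbol on the plus strand, from 17823843 to 17832818, lies within it at 1.45 to 1.75 FPKM. RAI1, on the plus strand, overlaps its 3′ end at 3.94 to 4.47 FPKM. The microRNA entries MIR6777 (1.66 to 5.16 FPKM) and MIR33B (at most 0.276 FPKM) also lie within it. Whether reads were counted by strand is not given in the sources used here, so reads of these overlapping entries cannot be told apart.

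INSIG1, on chromosome 7 from 155297776 to 155310233 (plus strand), encodes the sterol-sensing anchor and is itself an SREBP target. It had 292 and 267 CPM with DMSO and 242 and 331 with SF1-8. The SF1-8 libraries were the lowest and the highest of the 4. Its log2 fold change of 0.04 ± 0.16 (SE) was -0.20 without SF1-8 2, 0.25 without SF1-8 1 and -0.021 without DMSO 2, and it was -0.010 with no scaling of library sizes beyond the total count. The direction was thus not settled by these libraries. In FPKM the level was 61.4 ± 6.30 (SD, n = 2) in the DMSO group and 61.7 ± 13.8 (SD, n = 2) in the SF1-8 group.

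The mevalonate branch has 2 of the 8 genes. HMGCS1, on chromosome 5 from 43287470 to 43313473 (minus strand), encodes the synthase that makes HMG-CoA. Its level was 323 and 293 CPM with DMSO and 332 CPM in both libraries with SF1-8. Both SF1-8 libraries were above both DMSO libraries in CPM, but DMSO 1 lay closer to them than to DMSO 2. In FPKM it was highest in DMSO 1, at 40.0, against 39.1 in SF1-8 1 and 39.4 in SF1-8 2. Its log2 fold change of 0.11 ± 0.07 (SE; Benjamini-Hochberg adjusted p = 0.970 in edgeR) was the highest of the 8. In FPKM the level of HMGCS1 was 37.2 ± 3.95 (SD, n = 2) in the DMSO and 39.2 ± 0.238 (SD, n = 2) in the SF1-8 group. At its 3′ end the entry reaches past the gene in GENCODE 29, which ends there at 43289395. IDI1, on chromosome 10 from 1039152 to 1049170 (minus strand), encodes the isomerase that interconverts the building blocks of isoprenoids. It had 81.4 and 72.7 CPM with DMSO and 60.9 and 84.0 with SF1-8. As for INSIG1, the SF1-8 libraries were the lowest and the highest. Its log2 fold change was -0.09 ± 0.17 (SE), the only value below 0 among the 8, and it was 0.13 without SF1-8 1 and -0.33 without SF1-8 2. The FPKM of IDI1 was 14.2 ± 1.67 (SD, n = 2) in the DMSO and 13.1 ± 3.03 (SD, n = 2) in the SF1-8 group, and an antisense gene that overlaps it, IDI2-AS1, had 0.197 to 0.823 FPKM.

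The squalene and lanosterol steps are the work of FDFT1, SQLE and LSS. FDFT1, on chromosome 8 from 11795573 to 11839304 (plus strand), joins farnesyl diphosphate to squalene. It had 163 and 158 CPM with DMSO and 161 and 175 with SF1-8, and the groups overlapped. Its fold change was 1.05 (95% interval 0.916 to 1.20), and in FPKM its level was 22.3 ± 1.32 (SD, n = 2) against 23.0 ± 1.46 (SD, n = 2). SQLE, on chromosome 8 from 124998497 to 125022283 (plus strand), encodes the monooxygenase that oxidizes squalene, a rate-limiting step. It had 184 and 181 CPM with DMSO and 193 and 186 with SF1-8. The SF1-8 libraries were higher, with SF1-8 2 above DMSO 1 by less than the gap between the SF1-8 libraries. The fold change of SQLE was 1.04 (95% interval 0.922 to 1.17), with 33.9 ± 1.78 FPKM (SD, n = 2) in the DMSO and 34.5 ± 0.782 FPKM (SD, n = 2) in the SF1-8 group. LSS, on chromosome 21 from 46188141 to 46228822 (minus strand), encodes the cyclase that closes lanosterol, the first sterol. It had 194 and 203 CPM with DMSO and 208 and 210 with SF1-8. For LSS both SF1-8 libraries were above both DMSO libraries in CPM and in FPKM, with a log2 fold change of 0.07 ± 0.07 (SE). Its level per length was 14.1 ± 0.0953 FPKM (SD, n = 2) in the DMSO and 14.6 ± 0.197 FPKM (SD, n = 2) in the SF1-8 group, and an entry on the opposite strand, AP001469, lies inside it at 3.03 to 3.67 FPKM.

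**Figure D3:**
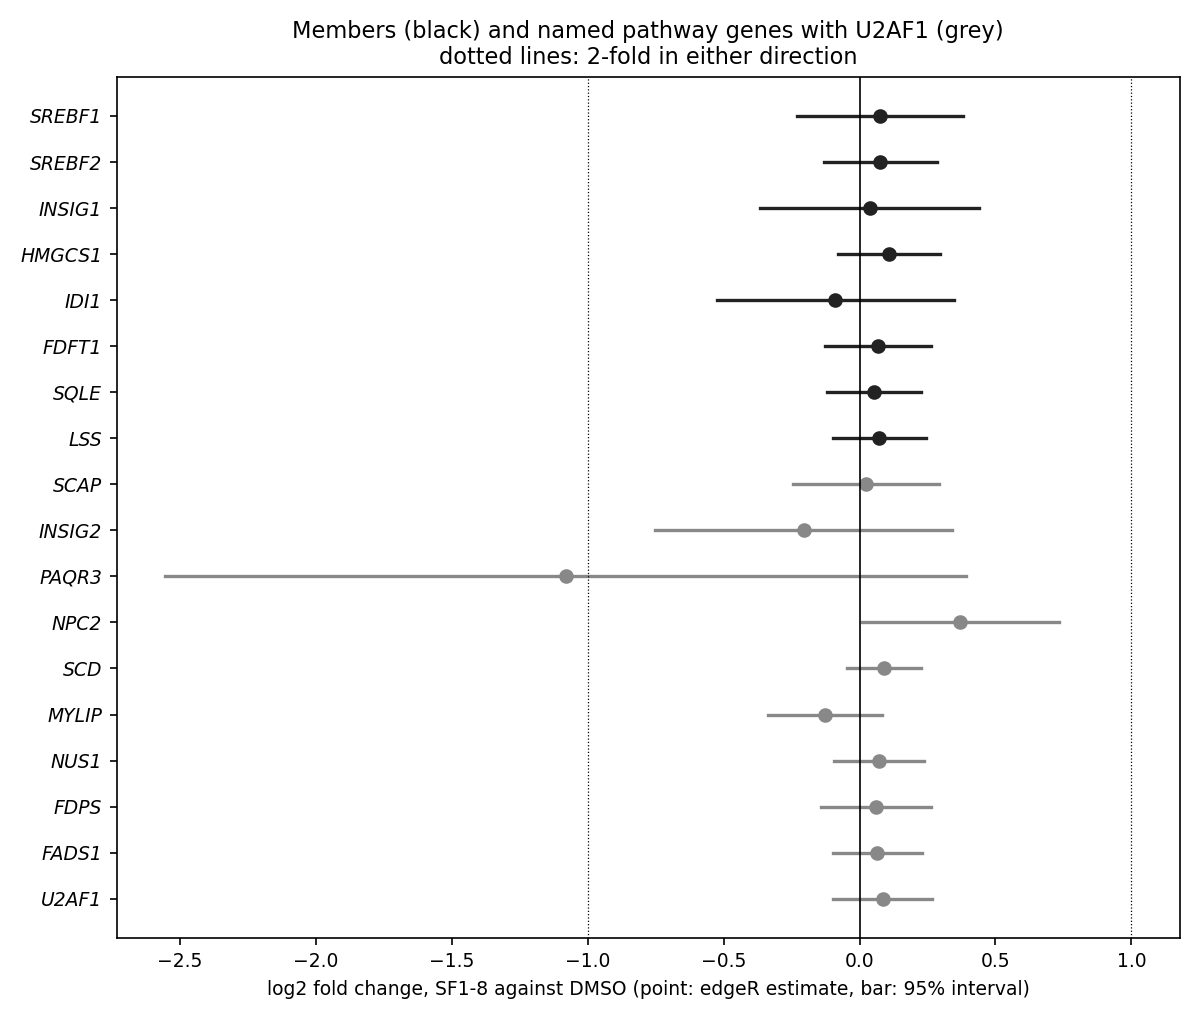
Log2 fold change of SF1-8 against DMSO (points, edgeR estimates) with 95% intervals (bars) for the 8 genes (black) and for other named pathway genes and U2AF1 (grey), with dotted lines at 2-fold. The 8 black intervals all cover 0 and lie inside the dotted lines, whereas that of PAQR3 reaches past 2-fold.

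The larger spread of some of the genes lay between the SF1-8 libraries. This was noticed after the values were seen, and it is given as a description. Between SF1-8 2 and SF1-8 1 the log2 difference was 0.45 for INSIG1 and 0.46 for IDI1, against -0.13 and -0.16 between DMSO 2 and DMSO 1. A gap at least as large, in either direction, was found for 6.70% (INSIG1) and 6.34% (IDI1) of the 3044 well-expressed genes, whose median gap was 0.074. TMEM97, another SREBP target, was higher in SF1-8 2 by 0.98. SREBF1 differed the other way by -0.24, and HMGCS1 (0.001), SQLE (-0.06), FDFT1 (0.12), SREBF2 (-0.01) and LSS (0.02) were nearly level. Of the 76 tested genes of the pathway lists and the 8 together, SF1-8 2 was above SF1-8 1 by more than 0.3 in 9 and below it by as much in 6. These are 11.8% and 7.89% of the 76, some of which had a mean below 10 FPKM. The same gaps were found in 22.0% and 24.2% of all genes tested, and in 5.62% and 4.86% of the well-expressed genes. The summed level of the 8 genes was 1530.0 and 1506 CPM with DMSO and 1539 and 1634 with SF1-8, highest in SF1-8 2. Most of the gap between the SF1-8 libraries in this sum came from INSIG1, at 242 CPM in SF1-8 1 and 331 CPM in SF1-8 2.

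**Figure D4:**
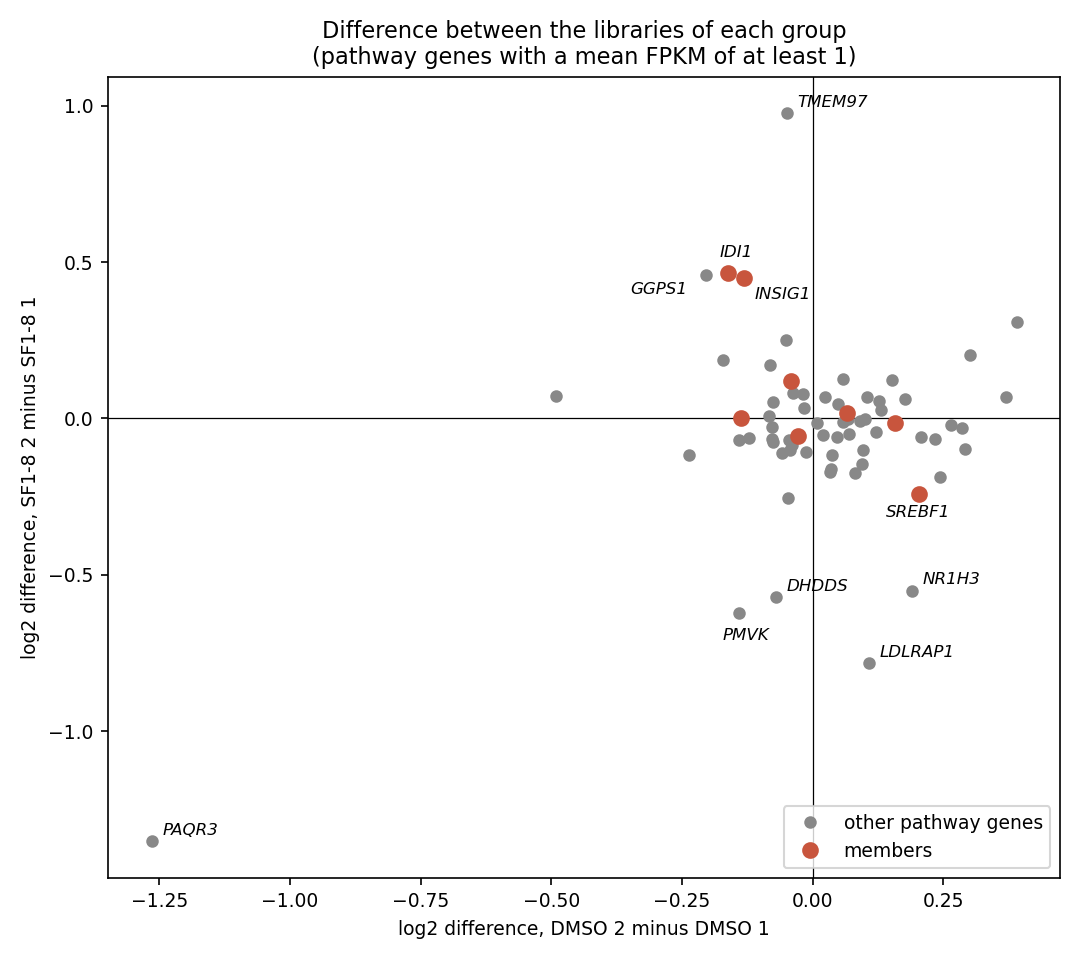
Log2 difference between the libraries of a group for pathway genes with a mean of at least 1 FPKM, with DMSO 2 minus DMSO 1 on the horizontal axis and SF1-8 2 minus SF1-8 1 on the vertical axis (red, the 8 genes; grey, other genes of the lists). INSIG1 and IDI1 lie near 0.45 on the vertical axis beside GGPS1, and the remaining red points but SREBF1 lie near 0.

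The other genes of the pathway were taken as 6 lists. In edgeR 0 genes of these lists passed an adjusted p of 0.05, and in DESeq2 1 did. At an unadjusted p under 0.05 the lists and the 8 genes together had 3 of 76 genes higher and 0 lower, against 4.33% of all genes in both directions. Over all genes tested 48.4% had a higher fitted level (median log2 fold change -0.011), and over the 3044 well-expressed genes 70.7% did (median 0.046). Of the 17 other enzymes of cholesterol synthesis, 15 had a higher and 2 a lower fitted level, and the median log2 fold change was 0.080. The 8 genes of SREBP processing had 5 higher and 3 lower (median 0.017), and the 12 of cholesterol uptake and transport 8 higher and 4 lower (median 0.036). Of the 16 fatty acid genes tested, 12 were higher and 4 lower (median 0.051), and of the 9 isoprenoid genes tested 6 were higher and 3 lower (median 0.036). The 6 tested genes of the LXR pathway, which senses oxysterols and drives cholesterol export, split into 3 and 3 (median 0.016). The list genes SCD5, ABCA1, ABCG1, SOAT2, CH25H and IDI2 had too few counts to be tested.

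**Figure D5:**
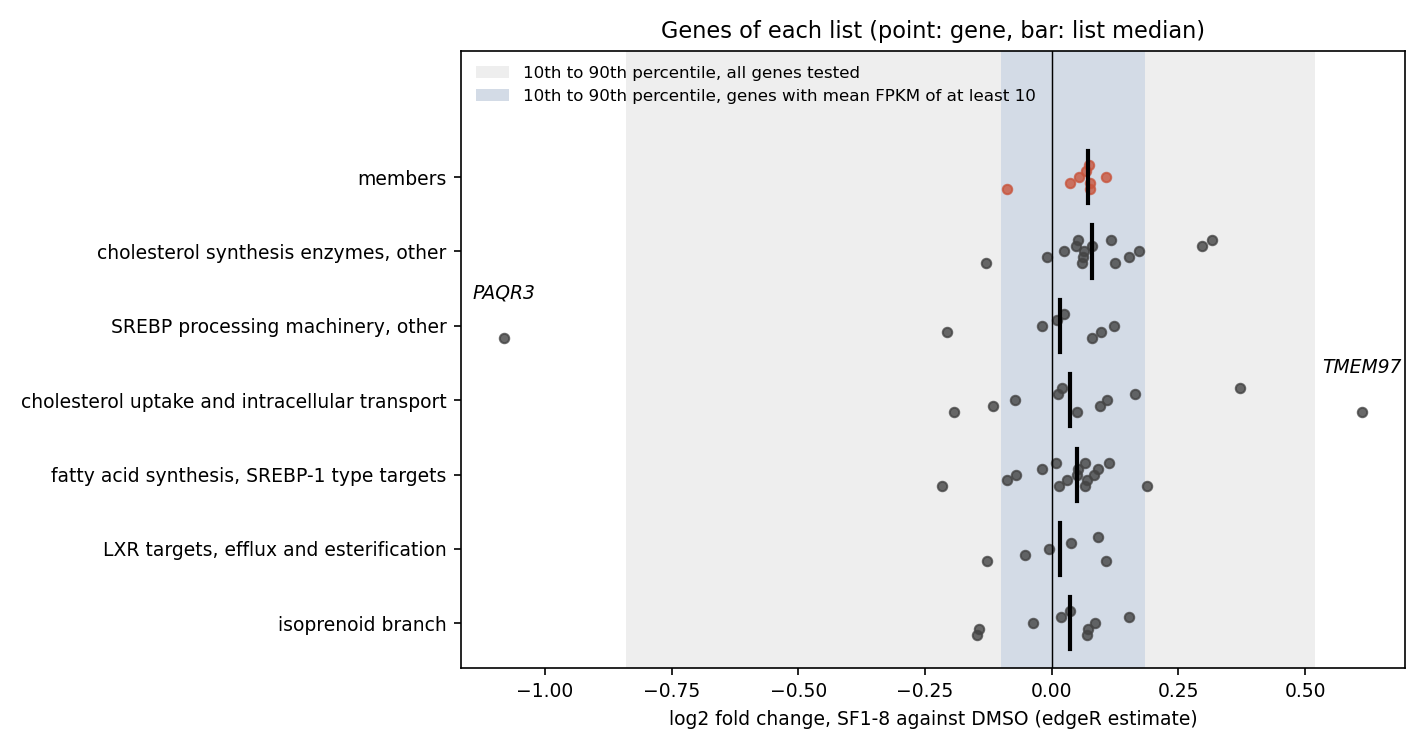
Log2 fold change of genes (points) by list, with the median of each whole list (bars), over the 10th to 90th percentile of all genes tested (light grey band) and of genes with a mean of at least 10 FPKM (blue-grey band). The points of the 8 genes (red) lie within the narrower band, and TMEM97 and PAQR3 lie outside the bulk of their lists.

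SC5D, an enzyme near the end of the pathway that was under an unadjusted p of 0.05, had a fold change of 1.23 (95% interval 1.02 to 1.48). DHCR7, which makes cholesterol from its 7-dehydro precursor, had a log2 fold change of -0.13, and HSD17B7, a ketosteroid reductase, one of 0.32. MSMO1, which removes methyl groups from the sterol ring, follows LSS in the pathway. It had 21.5 and 19.3 FPKM with DMSO and 22.0 and 23.0 FPKM with SF1-8, and a fold change of 1.13 (95% interval 0.977 to 1.30). For MSMO1, as for LSS, both SF1-8 libraries were above both DMSO libraries. Of the 17 other enzymes this held in CPM for 7, and both were below for 1 (DHCR7). The shares above were 17.3% of all genes and 30.9% of the well-expressed genes, and those below 18.1% and 7.36%.

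Upstream of the enzymes, SCAP, which escorts the SREBPs, had a log2 fold change of 0.02 ± 0.11 (SE), which was -0.10 without DMSO 1. INSIG2, the second sterol anchor, was low beside INSIG1, at 0.637 to 0.822 FPKM, with a log2 fold change of -0.21 ± 0.21 (SE). PAQR3, which tethers SCAP and SREBP to the Golgi, had the smallest p of its list. Its level was 12.3 and 4.82 FPKM with DMSO and 5.60 and 2.21 FPKM with SF1-8, and the groups overlapped. The log2 fold change of -1.08 ± 0.58 (SE) was -0.32 without DMSO 1 and -1.91 without SF1-8 1. SREBF1 and SREBF2 differed less between the libraries of a group than PAQR3 did.

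Of the uptake, fatty acid and LXR lists, the gene with the smallest p was named. NPC2, which carries cholesterol out of lysosomes, had a fold change of 1.29 and an adjusted p of 0.970 in edgeR. SCD, the main desaturase of fatty acids, had a log2 fold change of 0.09 ± 0.05 (SE). MYLIP, a ubiquitin ligase induced by LXR, had one of -0.13 ± 0.08 (SE).

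The genes whose pattern over the 4 libraries was most like the mean of the 8 were sought among the 68 tested genes of the lists. The measure was the Euclidean distance between log2 CPM centred on each gene's mean. The mean of the 8 was -0.019, -0.028, -0.023 and 0.069 in DMSO 1, DMSO 2, SF1-8 1 and SF1-8 2, so it set SF1-8 2 above the other 3 libraries. INSIG1 and IDI1 weighed most in this, with log2 differences of SF1-8 2 minus SF1-8 1 of 0.45 and 0.46. FDPS, which makes farnesyl diphosphate, was closest at a distance of 0.019. FADS1, a fatty acid desaturase, followed at 0.028, and NUS1, a subunit of the enzyme that makes the dolichol precursor, at 0.049. Their log2 fold changes were 0.06, 0.07 and 0.07, within the range of the 8 genes. With 4 libraries this likeness is a description only.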

How the data were processed

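RNA was depleted of ribosomal RNA and sequenced from 2 DMSO and 2 SF1-8 libraries, grouped and numbered by their labels. The submitters' processing notes name cutadapt, FastQC, Bowtie2, HISAT2 and StringTie on hg38, with versions not given in the sources used here. Per gene entry of a merged assembly, the authors deposited an FPKM value, normalized for length and depth and set to 0.0001 at a count of 0. The authors also deposited an estimated count, not normalized and given as whole numbers, of which 4 was the commonest above 0, so a count may not stand for 1 read and counting error was not computed. An entry can name several genes, as 2088 of 64873 do, and 2095 that name none (0.37% of counts) were left out.

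Counts were tested by edgeR 4.0.16 in R 4.3.3 (quasi-likelihood test, TMM factors from 0.973 to 1.05, filterByExpr, all 4 libraries, treatment alone, Benjamini-Hochberg adjustment over 26167 genes at 0.05). Alternatives were DESeq2 1.42.0, limma 3.58.1 on log2(FPKM + 1) or log2(FPKM + 0.1) with an FPKM of at least 1 in 2 libraries or no filter, other scalings, no count filter, removal of ribosomal RNA entries, counts divided by 4, the replicate number as a block, and leaving out each library. The steps were tested on simulated data. The 8 genes, the lists, the motifs and the rule for named genes (the 8 genes, SCAP, INSIG2, the smallest p of each list, the 3 nearest patterns and U2AF1) were chosen with earlier results of these data known. SC5D, DHCR7, HSD17B7, MSMO1, TMEM97, GGPS1 and the untested genes were named after their values were seen. The values of some genes that the list counts include are not reported here. Promoter sequences are RefSeq's on GRCh38.p14.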

Additional observations from a re-analysis of the deposited data

How the results depend on the processing

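None of the 8 genes was called under any alternative, with adjusted p-values from 0.652 to 1. The number of genes called over the whole table was 11 with edgeR, 150 with DESeq2, 31 with no filter on low counts, 1 with limma on log2(FPKM + 1), 0 with limma on log2(FPKM + 0.1), 39 with limma without a filter, and 0 to 30 when 1 library was left out. DESeq2 called 1 of the other cholesterol enzymes, where edgeR called 0. The median log2 fold change of the 8 genes was 0.071, and it was 0.024 with no scaling factors, 0.041 with limma on log2(FPKM + 1) with or without a filter, 0.043 with limma on log2(FPKM + 0.1), 0.058 with counts divided by 4, and 0.050 to 0.098 when 1 library was left out. With no scaling factors the median of all genes was -0.058, against -0.011.

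HMGCS1, SQLE, FDFT1 and LSS kept their direction in all 14 alternatives. INSIG1 turned to -0.010 with no scaling factors, to -0.0065 with limma on log2(FPKM + 1), with or without a filter, and to -0.0068 with limma on log2(FPKM + 0.1), and SCAP to -0.020 with no scaling factors. When 1 library was left out, the log2 fold change ran from -0.20 to 0.25 for INSIG1, -0.047 to 0.20 for SREBF1, -0.0013 to 0.16 for SREBF2, -0.33 to 0.13 for IDI1 and -0.10 to 0.17 for SCAP. The cause was not tested. INSIG2 was below the filter of the limma fits that had one.

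The replicate numbers are shared between the groups, but the labels tie no DMSO library to an SF1-8 library. The differences between replicates of both groups correlated with r = 0.016 over 26167 genes, which are not independent replicates. With the replicate number as a block 0 genes were called, against 11, and 32 of 33 results kept their direction and call. Counting error was not computed on its own. The SEs and intervals come from edgeR's model, whose spread was estimated over all genes from 2 libraries per group.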
